A study of Mus musculus with 6 samples.

Results

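Enzymes that activate or inactivate steroid and thyroid hormones in maternal hepatocytes are described here through 5 genes, Hsd11b1, Srd5a1, Hsd17b2, Akr1c6 and Dio1, which were taken by name from the 40824 genes of the deposited read count table. It holds 1567 hepatocyte nuclei sequenced with Smart-seq3xpress, a plate-based method that covers whole transcripts. The mice were wild-type (WT) females of strain C57BL/6J, mated when about 8 weeks old. The labels call the libraries nuclei, whereas their protocol text describes picked whole hepatocytes. The nuclei fall into 3 stages, G0 and G14.5, gestation stages named for their day, and P7L, day 7 after birth with lactation. Each stage has 2 libraries, 1 of nuclei from perfusion of the liver and 1 of nuclei from liver tissue, and the labels name no animal, so that p-values measure only the spread between these libraries, which may be technical. The labels name no transgene or drug in any group. The series follows hepatocyte states through gestation and lactation.

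The liver helps to set how much active hormone its cells and the circulation see. Hsd11b1 encodes the reductase that regenerates the glucocorticoid corticosterone from its inert 11-keto form, with NADPH from H6pd in the endoplasmic reticulum. Srd5a1 encodes a steroid 5-alpha-reductase, which makes dihydrotestosterone from testosterone and starts the breakdown of other steroids. Hsd17b2 encodes an oxidase that turns oestradiol into the weaker oestrone and testosterone into androstenedione, and Akr1c6 encodes an aldo-keto reductase of the 17-beta-hydroxysteroid dehydrogenase type. Dio1 encodes the type I deiodinase, a selenium-containing enzyme that removes iodine from thyroxine to give the active hormone triiodothyronine and also clears reverse triiodothyronine. Hepatocytes along the liver lobule differ between the pericentral end, near the central vein, and the periportal end, near the portal vein, and many steroid and bile acid enzymes are known to favour one of them.

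Across the 6 libraries the 5 genes gave 4 distinct pictures. Hsd17b2 had the most reads of the members, rose at G14.5 relative to G0 and was lowest at P7L, which passed the test against G14.5 but not against G0. Akr1c6 did not pass the test between stages but was several-fold higher in pericentral than in periportal nuclei at all 3 stages. Dio1 had reads in about 52.4% of nuclei and its level was lowest in both P7L libraries, a difference that did not pass the test. Hsd11b1 had few reads and Srd5a1 had 0, and both genes lie wholly inside the span of another gene, so their counts are treated apart from the others.

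Total reads per library ran from 226030591 to 379767336 and nuclei per library from 184 to 308. Markers of hepatocytes took 1.66% to 2.03% of the reads of a library, the marker lists of all other liver cell types took at most 0.0194%, and 0 nuclei had over 1% of their reads in any of these other lists. In 62 nuclei hepatocyte markers took at most 1% of the reads. Of the defining markers of other cell types, 5 genes were at 0 reads. No nuclei of a cell type that should lack the members were therefore available for a background share.

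The authors' length-scaled values divide reads by a length per gene and have about the same total in every nucleus. The length they imply followed exonic bases (Spearman's rho 0.85 across 17467 genes) more closely than the span with introns (0.61), and was within 5% of the exonic bases for 13.6% of these genes. The order of levels between genes therefore depends on the length used. Averaged over the nuclei of a library, Hsd17b2 had 99.8 to 252 (mean of the 6 libraries 168), Akr1c6 50.1 to 88.2 (mean 64.6) and Dio1 1.80 to 4.95 (mean 3.09). Hsd11b1 had 0.0141 to 0.415 and Srd5a1 was listed at 0. The ranges of Hsd17b2, Akr1c6 and Dio1 did not overlap on this scale. Per base of span, however, Hsd17b2 and Akr1c6 were close, with 22.0 and 21.7 reads over all nuclei, and Dio1 had 1.73. On the authors' scale H6pd had 4.80 to 9.58, and among relatives of the members Akr1d1, the 5-beta-reductase of bile acid and steroid breakdown, had 51.5 to 79.9 and Srd5a2, the other testosterone 5-alpha-reductase, had a mean of 10.6.

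Hsd17b2 lies on the forward strand at chr8:117701904-117759027 (GRCm38, GENCODE M21) and overlaps no other gene of the table. It had 1254004 reads, and 1566 of 1567 nuclei held at least 1. In CPM, reads scaled by the library size with TMM factors, it had 1186 in perfusion and 1029 in liver tissue nuclei at G14.5, against 711 and 618 CPM at G0. Both G14.5 libraries stood above both G0 libraries. The log2 fold change was 0.74 ± 0.13 (SE, n = 2 libraries per stage, 95% interval 0.43 to 1.04), with an adjusted p = 0.0147 in edgeR's quasi-likelihood test, and both preparations gave about the same difference, 0.74 in perfusion and 0.74 in liver tissue. Hsd17b2 was the 1 of 4 tested members called between G14.5 and G0, where 11.9% of the 15015 genes tested were called. The call was lost without the G14.5 perfusion library (adjusted p = 0.0883) and on the authors' values with a pseudocount of 1 (log2 fold change 0.57, adjusted p = 0.0888) or 0.1 (0.57, 0.0571).

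At P7L, Hsd17b2 had 407 CPM in perfusion and 453 CPM in liver tissue nuclei, under the levels of both earlier stages in both preparations. Against G14.5 this was a log2 fold change of -1.36 ± 0.13 (SE, n = 2 per stage, 95% interval -1.67 to -1.05, edgeR adjusted p = 0.00161), or 0.39 of the G14.5 level, and Hsd17b2 was again the 1 member called, where 9.26% of all genes tested were. Against G0 the log2 fold change was -0.62 ± 0.13 (95% interval -0.93 to -0.31), with an adjusted p = 0.0567 that missed the threshold. No member was called between P7L and G0, where edgeR called 438 genes, 2.92% of those tested, 3183 genes had an unadjusted p under 0.05 and DESeq2 called 1901. In that comparison Hsd17b2 passed without a term for preparation (adjusted p = 0.0380), on nuclei thinned to 250000 reads (0.0343) and in DESeq2 (0.0135). The comparisons share libraries, so that G14.5 enters both differences in which Hsd17b2 was called.

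**Figure D1:**
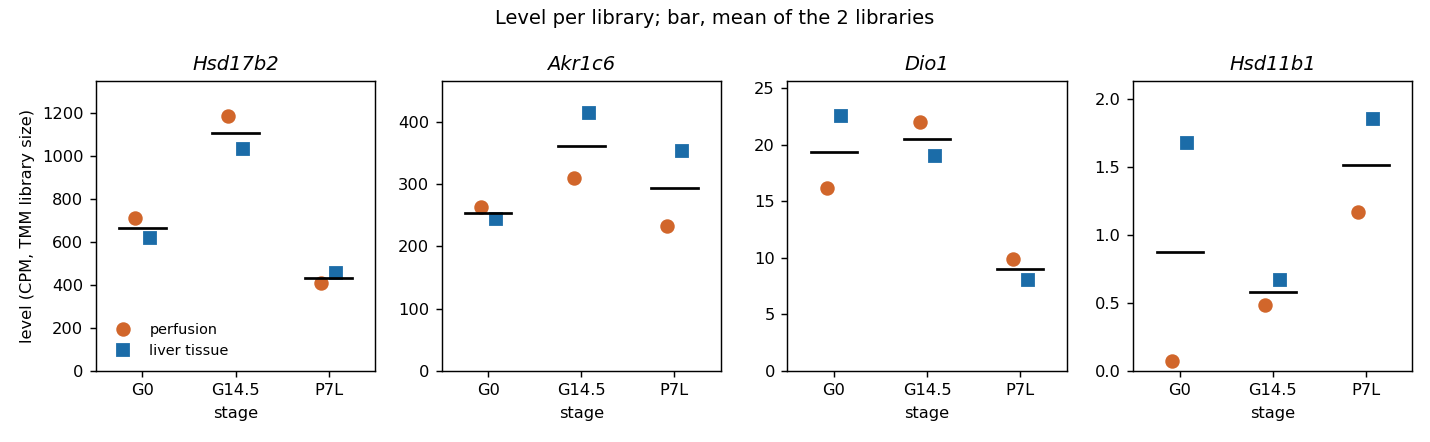
Level of 4 members in each library, in CPM of the TMM library size (vertical axis from 0), by stage (horizontal axis), with circles for perfusion, squares for liver tissue and a bar at the mean of the 2 libraries. Hsd17b2 lies between 1029 and 1186 CPM at G14.5, above every other library, and Dio1 lies below 10 CPM only at P7L.

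Akr1c6 lies at chr13:4434306-4457877 on the forward strand and overlaps no other gene of the table. It had 510850 reads, in 1556 of 1567 nuclei. Perfusion nuclei had 263 CPM at G0, 309 CPM at G14.5 and 233 CPM at P7L, and liver tissue nuclei had 243, 414 and 352 CPM at these stages. Both G14.5 libraries lay above both G0 libraries, whereas those of P7L overlapped both other stages, and the preparations lay further apart at G14.5 and P7L than at G0. Between G14.5 and G0 the log2 fold change was 0.49 ± 0.18 (SE, n = 2 per stage, 95% interval 0.06 to 0.92, edgeR adjusted p = 0.128). At P7L it was 0.17 ± 0.18 relative to G0 (-0.25 to 0.60, adjusted p = 0.623) and -0.31 ± 0.18 relative to G14.5 (-0.74 to 0.11, adjusted p = 0.356). Without the G0 perfusion library, G14.5 against G0 gave 0.81 with an adjusted p = 0.0155.

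To place nuclei along the lobule, a zone index was used, the share of reads from 13 pericentral genes among those from the 13 and 14 periportal genes combined. No member is among these genes. Of their reads in a library, the periportal genes Cps1 and Asl held 32.6% to 40.0% and 11.8% to 24.1%. The pericentral gene Oat held 0.0% in each library. The nuclei of a library were ranked by the index and split into 3 equal parts, and the reads of the outer parts were summed and compared within library. The part with the highest index, called pericentral, began at 0.355 in G14.5 liver tissue and at 0.137 in P7L perfusion. Zone differences of different stages therefore do not compare equal ranges of the index. Akr1c6 was higher in the pericentral group in 6 of 6 libraries. In CPM, it had 452 in the pericentral and 80.6 in the periportal group of G0 perfusion, and 412 and 110.5 in G0 liver tissue. At G14.5 it had 491 and 179 CPM in perfusion, and 699 and 219 CPM in liver tissue. At P7L it had 459 and 59.7 CPM in perfusion, and 627 and 120 CPM in liver tissue. The lowest pericentral sum, 412 CPM, stood above the highest periportal sum, 219 CPM, and the middle group lay between them in all 6 libraries.

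The pericentral level of Akr1c6 was 4.70 ± 1.85 times the periportal level (mean ± SD of the ratios, n = 6 libraries, range 2.74 to 7.69). Fitted over the 12 sums, the log2 fold change was 2.14 ± 0.19 (SE, 95% interval 1.72 to 2.57, edgeR adjusted p = 0.000288). Akr1c6 was the 1 of 4 tested members called by zone, where 2.9% of 14321 genes tested were. Within stages the log2 fold change was 2.19 ± 0.22 at G0 (adjusted p = 0.00482, 0.971% of genes called), 1.57 ± 0.21 at G14.5 (adjusted p = 0.0161, 1.08% called) and 2.67 ± 0.22 at P7L (adjusted p = 0.00401, 0.363% called), each with n = 2 libraries. The G14.5 call was lost without the perfusion library of that stage (adjusted p = 0.246), without its liver tissue library (0.432) and with the nuclei split at the middle of the ranking (1.18, adjusted p = 0.0816). The P7L call was lost without the P7L perfusion library (2.40, adjusted p = 0.113). The zone difference at P7L exceeded that at G14.5 by 1.1 ± 0.29 on the log2 scale, with an unadjusted p = 0.00601 and an edgeR adjusted p = 0.931. No member passed this test of a stage difference in zone, where edgeR called 0.0209% of genes in the comparison of G14.5 with G0, 0.00698% in that of P7L with G0 and 0.0279% in that of P7L with G14.5. In the same order 1169, 883 and 619 genes had an unadjusted p under 0.05, and DESeq2 called 434, 233 and 93.

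**Figure D2:**
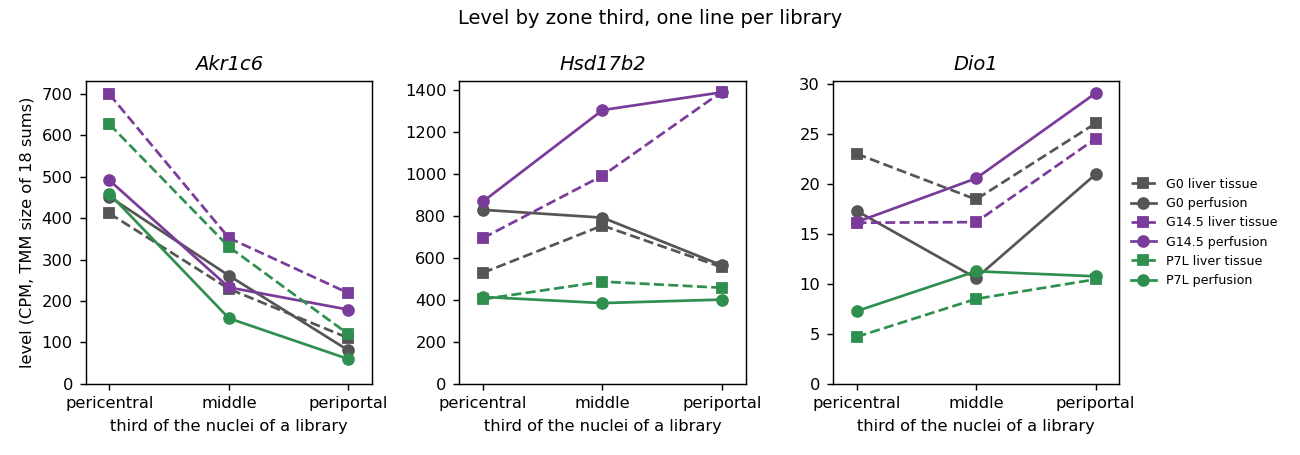
Level of Akr1c6, Hsd17b2 and Dio1 (CPM, vertical axis from 0) in the pericentral, middle and periportal group of the nuclei, with 1 line per library, coloured by stage, solid for perfusion and dashed for liver tissue. All 6 lines of Akr1c6 fall towards the periportal group, whereas Hsd17b2 has its highest values, 1389 and 1392 CPM, in the periportal groups of G14.5.

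Across single nuclei the Spearman correlation of Akr1c6 CPM with the zone index was 0.57 to 0.69 in the 6 libraries. Its median over the nuclei of the pericentral group was 405 CPM in G14.5 perfusion and 610 CPM in G14.5 liver tissue, against 105 and 130 CPM over those of the periportal group. Reads of the gene were also widespread at the periportal end, where at least 96.4% of the periportal nuclei of each library held 1 or more reads of it.

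The promoter of Akr1c6 in RefSeq, which is shown because this member was the one called by zone, covers chr13:4434093-4434392 on the forward strand (GRCm38.p6). Capitals mark the 50 bases from the annotated start on.
Akr1c6 promoter: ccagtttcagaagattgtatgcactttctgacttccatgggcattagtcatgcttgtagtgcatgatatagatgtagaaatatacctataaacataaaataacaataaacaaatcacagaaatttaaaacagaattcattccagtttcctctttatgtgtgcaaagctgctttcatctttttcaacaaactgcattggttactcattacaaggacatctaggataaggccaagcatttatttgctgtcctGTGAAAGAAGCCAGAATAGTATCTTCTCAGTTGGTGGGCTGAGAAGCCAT
RefSeq promoters were found for 4 members and none was used for Hsd17b2. They were searched on both strands for CTTTGA (the core of TCF/LEF sites), AGGTCA (a nuclear receptor element), CAAAGTCCA (HNF4), TTCNNNGAA (STAT5), and the palindromes of HNF1 and of the glucocorticoid response element. No match was found in any of the 4 windows. Of 32851 mouse promoters of the same length, 16.0% held CTTTGA, 16.3% AGGTCA, 0.475% CAAAGTCCA, 8.30% TTCNNNGAA, and 0.00913% each of the other motifs.

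Akr1c6 shares sequence with its relative Akr1c20, and 1.38% of its 50-base stretches occur in transcripts of that gene. The longest shared run has 65 bases, all coding, and joins exons 4 and 5 of 9, from chr13:4446406 to 4447048 with the intron between. It is shown because reads inside it cannot be told apart between the genes.
Akr1c6 and Akr1c20: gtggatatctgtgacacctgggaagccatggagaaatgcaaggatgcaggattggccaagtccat
Akr1c20 was itself higher in the pericentral group (log2 fold change 1.45 ± 0.14, edgeR adjusted p = 0.000402, 6 of 6 libraries), whereas between G14.5 and G0 it went the other way from the estimate for Akr1c6. It had 123 and 147 CPM in G14.5 perfusion and liver tissue, against 204 and 207 CPM at G0 (-0.61 ± 0.14, adjusted p = 0.0372), a call lost when any library other than that of G0 liver tissue was left out (adjusted p up to 0.233).

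Hsd17b2 showed no common zonal direction. Its pericentral level was higher than the periportal one in 2 of 6 libraries, and the log2 fold change was -0.22 ± 0.18 (SE, 95% interval -0.61 to 0.17, edgeR adjusted p = 0.686). At G14.5 it had 869 CPM in the pericentral and 1389 CPM in the periportal group of the perfusion library, and 694 and 1392 CPM in those of the liver tissue library. At G0 it had 829 and 564 CPM in the perfusion library, and 529 and 555 CPM in the liver tissue library. At P7L all 4 outer sums lay between 401 and 458 CPM. The G14.5 estimate was -0.84 ± 0.18 (unadjusted p = 0.00188, adjusted p = 0.108), and its difference from G0 was -1.08 ± 0.26 (unadjusted p = 0.00312, adjusted p = 0.385). The G14.5 estimate passed with cuts common to all libraries (-0.82, adjusted p = 0.0457), in DESeq2 (0.0429), without the G0 perfusion library (0.0208) and without the G0 liver tissue library (0.0199).

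Dio1 lies on the reverse strand at chr4:107291465-107307169 and overlaps no other gene of the table. Its coding sequence reads selenocysteine, the selenium amino acid of the active site, at a TGA codon that would otherwise be a stop. This codon is number 126 of 257, in exon 2 of 4, at chr4:107297700-107297702, and is shown in capitals within chr4:107297679-107297723 (GRCm38, reverse strand).
Dio1: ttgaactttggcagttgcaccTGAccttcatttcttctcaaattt
Dio1 had 27201 reads, in 821 of 1567 nuclei. Perfusion nuclei had 16.1 CPM at G0, 22.0 CPM at G14.5 and 9.90 CPM at P7L, and liver tissue nuclei had 22.6, 19.0 and 8.05 CPM at these stages. The P7L libraries lay below the 4 others, while G0 and G14.5 overlapped. The log2 fold change was -1.19 ± 0.32 for P7L against G14.5 (SE, n = 2 per stage, 95% interval -1.94 to -0.44, edgeR adjusted p = 0.0637) and -1.11 ± 0.32 for P7L against G0 (-1.86 to -0.36, adjusted p = 0.111). For G14.5 against G0 it was 0.08 ± 0.31 (-0.66 to 0.82, adjusted p = 0.892). P7L against G14.5 passed without a term for preparation (adjusted p = 0.0392), in DESeq2 (0.00127), without the G0 liver tissue library (0.0241) and without the G0 perfusion library (0.0205), and P7L against G0 passed in DESeq2 (0.00511).

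**Figure D3:**
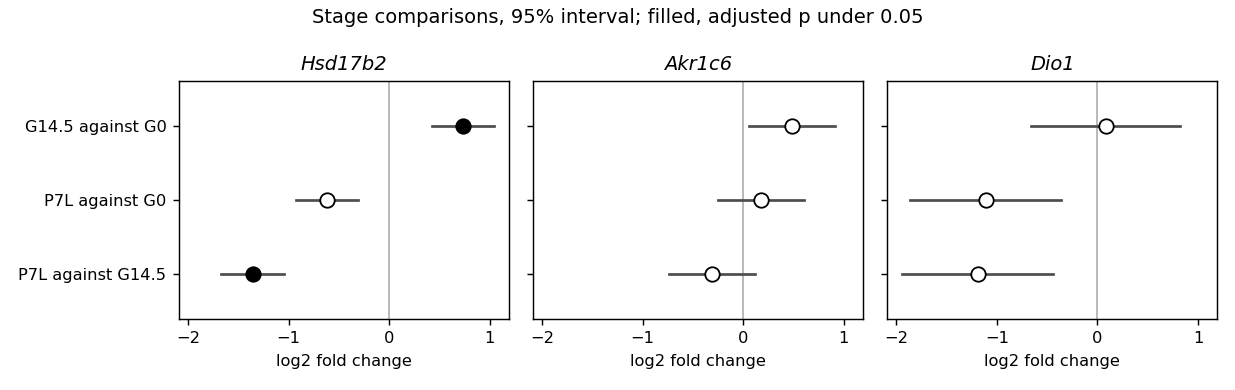
Log2 fold change of Hsd17b2, Akr1c6 and Dio1 (horizontal axis) in the 3 stage comparisons (rows), with edgeR's 95% interval as a line and a filled point where the adjusted p was under 0.05. The filled points are Hsd17b2 at 0.74 for G14.5 against G0 and -1.36 for P7L against G14.5.

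The share of nuclei with Dio1 reads was lower in both P7L libraries than in the 4 others. Nuclei were then thinned to 250000 reads, which left out 35 nuclei with fewer reads. In thinned perfusion nuclei the share with at least 1 read was 40.9% at G0 (95% Clopper-Pearson interval 33.6% to 48.4%). It was 51.7% at G14.5 (45.9% to 57.4%) and 36.5% at P7L (31.0% to 42.3%). In liver tissue nuclei it was 46.4% (39.9% to 53.0%), 49.1% (42.4% to 55.9%) and 35% (29.6% to 40.8%). Before thinning, with the stages in the same order, the shares were 55.4%, 63.5% and 43.6% in perfusion, and 56.0%, 57.1% and 41.9% in liver tissue. The P7L intervals lay below those of G14.5 within each preparation and overlapped those of G0. These intervals cover counting error only, since reads were counted, which can repeat the same molecules, and since nuclei of 1 library share their source. In nuclei with reads, the mean number of Dio1 reads was 39.8, 39.8 and 26.2 in the perfusion libraries, and 36.3, 37.2 and 17.5 in those of liver tissue, at median depths of 731494.5 to 1191576 reads per nucleus.

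By zone, Dio1 was lower in the pericentral group in 6 of 6 libraries, with 4.70 to 23.1 CPM there and 10.5 to 29.1 CPM in the periportal group. The log2 fold change was -0.60 ± 0.23 (SE, 95% interval -1.1 to -0.10), with an unadjusted p = 0.0241 and an edgeR adjusted p = 0.271, and DESeq2 gave an adjusted p = 0.0272. The ratio of the pericentral to the periportal level was 0.67 ± 0.16 (mean ± SD, n = 6). The middle group lay between the outer ones in 3 of 6 libraries, G14.5 perfusion, G14.5 liver tissue and P7L liver tissue. In G14.5 liver tissue the pericentral and middle groups were nearly equal, with 15.4 CPM each before TMM scaling. Across single nuclei the Spearman correlation of Dio1 CPM with the zone index was weak, -0.16 to -0.04 in the 6 libraries.

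The members also differed in how unevenly nuclei of the same library held them. The coefficient of variation of CPM over nuclei was 0.88 to 1.60 for Hsd17b2, 0.94 to 1.40 for Akr1c6 and 1.71 to 3.02 for Dio1. The 10% of nuclei with the most reads of a gene held 33.6% to 44.3% of all Hsd17b2 reads, 31.9% to 46.2% of Akr1c6 reads and 55.0% to 69.2% of Dio1 reads. In P7L perfusion the median nucleus had 79.3 CPM of Akr1c6, whereas the 90th percentile reached 699 CPM. Within libraries the members hardly went together, with Spearman correlations over thinned nuclei of -0.16 to 0.11 between Hsd17b2 and Akr1c6, -0.10 to 0.12 between Hsd17b2 and Dio1 and -0.18 to -0.05 between Akr1c6 and Dio1.

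**Figure D4:**
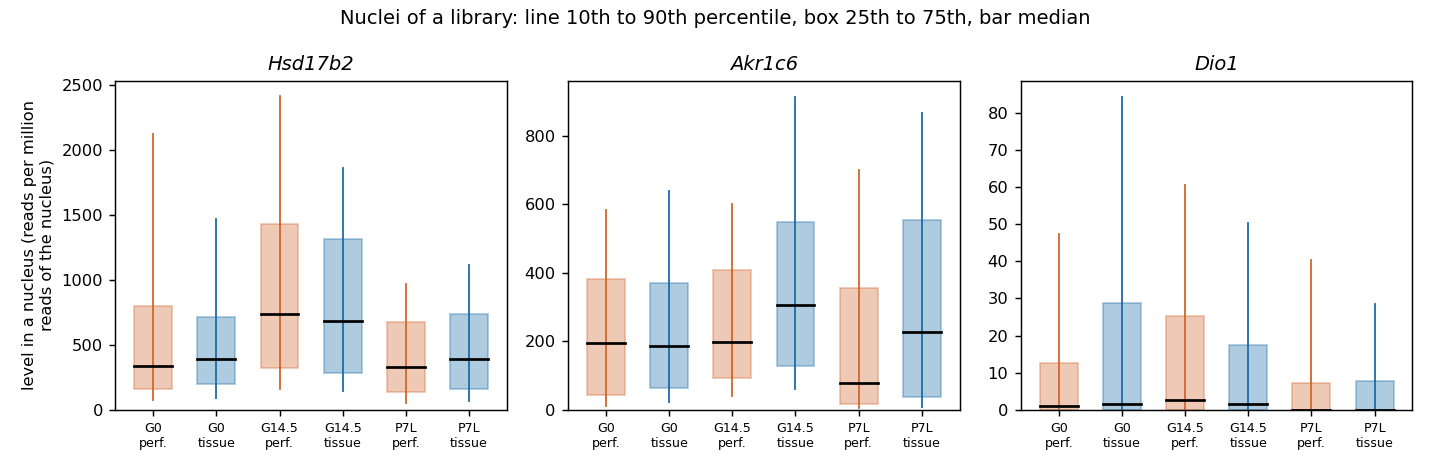
CPM within each nucleus, reads scaled by its own total (vertical axis from 0), of Hsd17b2, Akr1c6 and Dio1 in the nuclei of each library, with a line from the 10th to the 90th percentile, a box from the 25th to the 75th and a bar at the median. The median of Dio1 is 0 in both P7L libraries and 0.92 to 2.71 in those of G0 and G14.5, in nuclei not thinned to an equal depth. The median of Akr1c6 in P7L perfusion, 79.3, is the lowest of its 6.

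Between preparations, perfusion against liver tissue, no member was called. Akr1c6 had the lowest unadjusted p of them, with a log2 fold change of -0.30 ± 0.15 (SE, n = 3 libraries per preparation, 95% interval -0.65 to 0.05, unadjusted p = 0.0815, edgeR adjusted p = 0.971). It was lower in perfusion at G14.5 and P7L. Hsd17b2 differed by 0.08 ± 0.11 (-0.17 to 0.33) and Dio1 by 0.01 ± 0.26 (-0.60 to 0.62). Over all genes edgeR called 0, or 0.0% of those tested, against 707 with an unadjusted p under 0.05 and 87 called by DESeq2.

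Hsd11b1 and Srd5a1 could not be read as levels. Hsd11b1 lies on the reverse strand at chr1:193221634-193264075, wholly inside the span of Lamb3 on the forward strand and overlapping 4930570N18Rik, and none of its exonic bases falls in an exon of another gene. Srd5a1 lies on the reverse strand at chr13:69573449-69611442, wholly inside the span of Nsun2 on the forward strand. It also overlaps Gm17108, which had 0 reads, and 16.4% of its exonic bases fall in exons of other genes. Of its 50-base stretches, 15.1% occur in transcripts of Gm17108. Of 922 protein-coding genes that lie wholly inside other genes of the table, 92.5% had 0 reads in all 1567 nuclei, whereas this held for 14.9% of the 13062 protein-coding genes that overlap no other gene and 1.91% of the 5868 with up to 50% of their span in others. Of the 601 whose covering genes are all on the opposite strand 90.3% were at 0, a class that holds Hsd11b1 but not Srd5a1. Whether strand was used in counting is not given in the sources used here, and the part of these overlaps in the counts of Hsd11b1 and Srd5a1 was not tested.

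**Figure D5:**
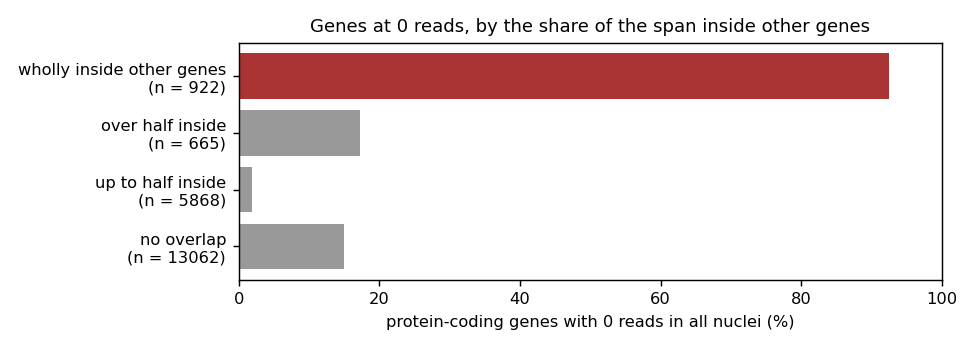
Share of protein-coding genes with 0 reads in all nuclei (horizontal axis, %), by how much of their span lies inside other genes of the table (rows, with the number of genes). The share is 92.5% for genes wholly inside others, the group of Hsd11b1 and Srd5a1, against 14.9% for genes with no overlap.

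Hsd11b1 had 1654 reads in all, in 123 of 1567 nuclei. The perfusion libraries had 18 at G0, 168 at G14.5 and 403 at P7L, and those of liver tissue had 380, 168 and 517. A single nucleus held 216 of the 380 reads in G0 liver tissue. In CPM, with stages in this order, this came to 0.0715, 0.487 and 1.17 in perfusion, and 1.68, 0.669 and 1.85 in liver tissue. No stage comparison of Hsd11b1 passed (edgeR adjusted p = 0.468 to 0.927), and the standard errors of 1.01 to 1.12 on the log2 scale leave room for large differences either way. Lamb3, the laminin subunit gene that spans it, had 0.783, 8.46 and 4.22 CPM in the perfusion libraries, and 2.39, 8.26 and 3.89 CPM in those of liver tissue. Srd5a1 had 0 reads in 1567 nuclei, which by counting alone allows a share of nuclei with a counted read of up to 0.191%. Its spanning gene Nsun2 had 20.9 to 44.8 CPM.

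Partners of the glucocorticoid enzyme were counted without this limit. H6pd, which supplies its NADPH, was higher at G14.5, with 162 CPM in perfusion and 131 CPM in liver tissue nuclei against 76.8 and 72.7 CPM at G0 (log2 fold change 0.97 ± 0.16, edgeR adjusted p = 0.0117). The call was lost without the G14.5 perfusion library (adjusted p = 0.0864). At P7L it had 96.4 CPM in each library. Serpina6, the plasma carrier of corticosterone, had 3623 and 3832 CPM at G14.5, against 118 and 121 CPM at G0 (4.96 ± 0.13, adjusted p = 1.77e-05). Nr3c1, the glucocorticoid receptor, had 246 CPM in perfusion and 237 CPM in liver tissue nuclei of G14.5, against 323 and 332 CPM in those of G0 (-0.44 ± 0.13, adjusted p = 0.0672), and 242 and 212 CPM in those of P7L (-0.53 ± 0.13 relative to G0, adjusted p = 0.0767).

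The genes around the members were taken from 8 lists, of which 87 genes were tested. Of their calls, 9 of 29 for G14.5 against G0, 0 of 14 where P7L was set against G0, 11 of 28 where it was set against G14.5, and 10 of 14 by zone held in all 6 fits that left out 1 library. Pck1, which is on the glucocorticoid list and among the periportal genes of the zone index, was left out of the counts by zone. Over all genes tested, 11.9%, 2.92%, 9.26% and 2.9% were called in these comparisons, in the same order, and the list counts that follow stand against these shares. The lists were chosen with earlier results of these data known, so that a count above these shares is a description only. Of 16 tested genes known to respond to glucocorticoids, 5 were higher and 2 lower at G14.5 against G0, with a median log2 fold change of -0.04 against -0.01 over all genes. Those with the smallest p were Mt1, a metallothionein (1.38 ± 0.11, adjusted p = 0.000813), Igfbp1, a binder of insulin-like growth factors (2.27 ± 0.22, 0.00172), and Tat, tyrosine aminotransferase (1.56 ± 0.15, 0.00184), whereas Tdo2, which degrades tryptophan, was lower (-0.74 ± 0.14, 0.0183, and 0.114 without the G14.5 perfusion library). At P7L against G14.5, 3 were higher, led by Tdo2 (1.59 ± 0.14, 0.00116), and 4 lower, led by Igfbp1 (-2.30 ± 0.22, 0.00151), with a median of -0.01 against 0.00. At P7L against G0, 3 were higher and 1 lower, with a median of 0.29 against 0.01. By zone, 2 of 15 were lower in the pericentral group, Tat and the gluconeogenic enzyme gene G6pc, with a median of -0.25 against 0.00, and these calls were lost in 3 and 5 of 6 fits with 1 library left out.

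Among 24 tested relatives of the steroid enzymes, 5 were higher and 3 lower at G14.5 against G0, with a median log2 fold change of -0.02 against -0.01 over all genes. Cyp7b1, the oxysterol 7-alpha-hydroxylase, had 280 and 318 CPM in G14.5 perfusion and liver tissue, against 143 and 141 CPM at G0 (1.07 ± 0.13, edgeR adjusted p = 0.00375). Hsd17b13, a lipid droplet enzyme, had 65.0 and 46.3 CPM at G14.5, against 245 and 234 CPM at G0 (-2.13 ± 0.16, adjusted p = 0.000522). At P7L against G14.5, 4 were higher, led by Hsd17b13 (2.45 ± 0.16, adjusted p = 0.000366), and 2 lower, led by Hsd17b6 (-1.67 ± 0.23, adjusted p = 0.00592), with a median of 0.11 against 0.00. At P7L against G0, 3 were higher, Akr1c14 (0.95 ± 0.12, adjusted p = 0.0185), Cyp7b1 (0.88 ± 0.13, 0.0245) and Cyp17a1 (1.07 ± 0.21, 0.0449), with a median of 0.29 against 0.01. All 3 calls were lost without the P7L perfusion library (adjusted p = 0.151, 0.188 and 0.291) and without the P7L liver tissue library (0.114, 0.165 and 0.250).

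By zone the relatives went both ways. Of the 24 tested, 4 were higher in the pericentral group, Akr1c20, Hsd3b7 (0.98 ± 0.12, edgeR adjusted p = 0.00165), Hsd3b3 (0.62 ± 0.10, 0.00779) and Cyp7b1 (1.52 ± 0.25, 0.00915), and 3 were lower, Hsd17b13 (-2.89 ± 0.30, 0.000798), Cyp17a1 (-2.58 ± 0.35, 0.00282) and Hsd17b6 (-3.65 ± 0.70, 0.0198). Their median was 0.07 against 0.00 over all genes. The Hsd17b6 call was lost without the G14.5 liver tissue (adjusted p = 0.0617), the G14.5 perfusion (0.0820) or the G0 liver tissue library. Hsd3b3 has 56.9% of its span inside another gene.

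Of 7 tested genes of hormone conjugation, 1 was higher at G14.5 against G0, Ugt2b36, a glucuronosyltransferase (0.67 ± 0.10, edgeR adjusted p = 0.00873), and 4 were lower, with a median of -0.63 against -0.01. Without either G14.5 library the Ugt2b36 call was lost (adjusted p = 0.0509 without perfusion, 0.0550 without liver tissue). Sult1d1, a sulfotransferase, had 11.7 and 13.1 CPM in G14.5 perfusion and liver tissue, against 102 and 95.5 CPM at G0 (-2.99 ± 0.19, adjusted p = 0.000316). Sult1e1, the oestrogen sulfotransferase, had 42 reads at G0, 2 at G14.5 and 707 at P7L in the perfusion libraries, and 76, 0 and 1059 reads in those of liver tissue. Sult1e1 was called for G14.5 against G0 (adjusted p = 0.0165, and 0.0782 without the G14.5 liver tissue library) and for P7L against G14.5 (0.00392). It was not called for P7L against G0 (log2 fold change 3.55 ± 0.84, adjusted p = 0.0750). At P7L against G14.5, 3 of the 7 were higher and 1 lower, with a median of 0.62 against 0.00. At P7L against G0, 1 was higher, the sulfotransferase gene Sult1a1 (0.87 ± 0.15, adjusted p = 0.0317, lost in 3 of 6 fits with 1 library left out), with a median of 0.13 against 0.01. By zone, 1 was higher in the pericentral group, Ugt2b36 (0.60 ± 0.09, adjusted p = 0.00553), with a median of 0.59 against 0.00.

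Of 7 tested steroid receptor genes, 2 were lower at G14.5 against G0, with a median of -0.40 against -0.01. Pgr, the progesterone receptor, had 24 and 28 reads in G14.5 perfusion and liver tissue, against 185 and 239 reads at G0 (-3.31 ± 0.61, edgeR adjusted p = 0.0166), a call lost without either G14.5 library (0.104 and 0.106). Pgrmc1, a membrane haem-binding protein of the progesterone receptor component family, had 74.5 and 69.5 CPM at G14.5, against 117 and 128 CPM at G0 (-0.77 ± 0.16, adjusted p = 0.0234), a call lost in 5 of 6 fits with 1 library left out (adjusted p up to 0.157). At P7L against G14.5, 1 was lower and 1 higher, with a median of -0.08 against 0.00. Esr1, the oestrogen receptor whose ligand Hsd17b2 inactivates, had 275 and 227 CPM at P7L, against 592 and 526 CPM at G14.5 (-1.16 ± 0.13, adjusted p = 0.00255). Pgrmc1 was the higher one (0.64 ± 0.16, adjusted p = 0.0499, lost in 4 of 6 fits with 1 library left out). At P7L against G0, 1 was lower, Esr1 (-0.81 ± 0.13, adjusted p = 0.0284), with a median of -0.53 against 0.01, and that call was lost without either P7L library (0.158 and 0.224).

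Around Dio1, 2 of 10 tested genes of thyroid hormone deiodination, transport and reception were lower at G14.5 against G0, with a median of -0.18 against -0.01. One was Slc16a10, a transporter of thyroid hormones and aromatic amino acids, with 760 and 896 CPM in G14.5 perfusion and liver tissue, against 1375 and 1307 CPM at G0 (-0.70 ± 0.12, edgeR adjusted p = 0.0130, and 0.0854 without the G14.5 perfusion library). It was higher at P7L against G14.5 (1.04 ± 0.12, adjusted p = 0.00302) and in the pericentral group (1.60 ± 0.18, adjusted p = 0.00108, 6 of 6 libraries). The second was Thra, a thyroid hormone receptor, which had 2.38 and 1.31 CPM at G14.5, against 9.67 and 4.79 CPM at G0 (-1.95 ± 0.43, adjusted p = 0.0300), a call lost in 5 of 6 fits with 1 library left out (adjusted p up to 0.149). At P7L against G0, 1 of the 10 was lower, the corepressor gene Ncor1 (-0.76 ± 0.11, adjusted p = 0.0244), with a median of -0.30 against 0.01, and this call was lost without either P7L library (0.140 and 0.244). Thrb, the main thyroid hormone receptor of liver, had 1282 to 1624 CPM in all 6 libraries and no stage difference passed (log2 fold changes of -0.06 to -0.23, adjusted p = 0.311 to 0.783). Of the other deiodinases, the length-scaled values of Dio2 and Dio3 were at most 0.000270 and 0.0557 in any library.

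Of 9 tested genes known to respond to thyroid hormone, 2 were higher at G14.5 against G0, Thrsp, a regulator of lipogenesis (2.33 ± 0.14, edgeR adjusted p = 0.000291), and Cyp7a1, the first enzyme of bile acid synthesis (2.01 ± 0.25, adjusted p = 0.00388), with a median of 0.01 against -0.01. At P7L against G0, 3 were higher, Thrsp (1.22 ± 0.14, adjusted p = 0.0122), Cyp7a1 (1.79 ± 0.25, 0.0223) and Me1, malic enzyme (0.87 ± 0.15, 0.0317), with a median of 0.01 against 0.01. These calls were lost in 1, 1 and 3 of 6 fits with 1 library left out. At P7L against G14.5, Me1 (0.93 ± 0.15, adjusted p = 0.009998) and the fatty acid synthase gene Fasn (1.02 ± 0.20, 0.0232) were higher, and Thrsp (-1.11 ± 0.14, 0.00391) and Gpd2, a mitochondrial glycerol phosphate dehydrogenase (-1.24 ± 0.17, 0.00581), were lower, with a median of 0.00 against 0.00. Of these 4, only the Thrsp call held in all 6 such fits. By zone, Cyp7a1 was higher in the pericentral group (2.56 ± 0.20, 0.000123), and Acaca, acetyl-CoA carboxylase (-1.22 ± 0.15, 0.00168), and Fasn (-0.94 ± 0.18, 0.0176, lost in 3 of 6 fits) were lower, with a median of -0.14 against 0.00. Of 12 tested genes of selenoprotein synthesis and selenoproteins, 1 was higher at G14.5 against G0, the selenium carrier Selenop, listed as Sepp1 (0.68 ± 0.17, adjusted p = 0.0438), and 2 were lower at P7L against G14.5, Sepp1 (-1.01 ± 0.17, adjusted p = 0.0128) and Sep15 (-0.87 ± 0.22, adjusted p = 0.0499, lost in 4 of 6 fits with 1 library left out). Both Sepp1 calls were lost in 3 of 6 fits with 1 library left out (adjusted p up to 0.167 and 0.101). Of 3 tested plasma carriers of hormones, Ttr, which carries thyroxine, was lower at G14.5 against G0 (-1.06 ± 0.19, adjusted p = 0.0166, and 0.118 without the G14.5 liver tissue library), and Serpina6 was higher, as given above. Serpina7, thyroxine-binding globulin, had 13 and 25 reads in P7L perfusion and liver tissue, against 1336 and 478 reads at G14.5 and 719 and 741 reads at G0. It was lower at P7L both against G14.5 (-5.53 ± 0.84, adjusted p = 0.00871, and 0.0743 without the P7L perfusion library) and against G0 (-5.60 ± 0.83, adjusted p = 0.0249, lost without either P7L library, with an adjusted p up to 0.159). Serpina6 was also lower at P7L, with 113 and 103 CPM, against G14.5 (-5.11 ± 0.13, adjusted p = 1.51e-05).

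Genes were also ranked by how alike their pattern was to that of a member over the 18 sums of library and zone group. The measure was Pearson's r of log2 CPM with 1 CPM added. The 5700 candidates were tested genes with a mean of at least 20 CPM and reads in at least 20% of all nuclei. Unnamed gene models and clone names were left out. The sums of a library share its depth and preparation, so that r is a description. Nearest to Akr1c6 were Hsd3b7 (r = 0.94), a bile acid synthesis enzyme, Aox3 (0.93), an aldehyde oxidase, and Ahr (0.92), the aryl hydrocarbon receptor. Nearest to Hsd17b2 were Itih4 (0.91), Syne1 (0.91) and Ehbp1 (0.91). Nearest to Dio1 were Ptprk (0.90), Esr1 (0.88) and Slc40a1 (0.87), the iron exporter. Nearest to Hsd11b1, whose sums hold few reads, were Epm2a (0.82), Fbxo22 (0.81) and Sdha (0.77). Between members, r was 0.67 for Hsd17b2 and Dio1, 0.14 for Hsd17b2 and Akr1c6 and -0.26 for Akr1c6 and Dio1.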

How the data were processed

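Smart-seq3xpress libraries of hepatocyte nuclei were used as deposited. The submitters' processing notes name Trimmomatic (0.39), HISAT2 (2.1.0), featureCounts (1.5.3) and the build GRCm38 (mm10). The raw read counts per gene and nucleus are the authors', as are TPM-like values, which the authors divided by gene length and scaled to about the same total per nucleus. The counting annotation is not given in the sources used here.

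Counts were summed per library and tested with edgeR 4.0.16 (R 4.3.3, TMM, robust quasi-likelihood F test). The model of the 6 sums held stage and preparation, since libraries of 1 number share a preparation. That of the 12 zone sums held library and zone. Tested genes passed filterByExpr and had reads in 5% or more of nuclei in 2 or more libraries (15015 genes). Calls needed an adjusted p below 0.05 (Benjamini-Hochberg, two-sided). All 1567 nuclei were kept and no doublet caller was run. In counts simulated for G14.5 against G0 over 15015 genes, 59.1% of 4-fold and 7.46% of 1.5-fold changes were recovered, and 14 of 73 calls were false.

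Members and lists were chosen with earlier results of these data known. Named genes are the members, up to 6 called genes per pathway list by smallest p, H6pd, Nr3c1, Thrb, Serpina6, and the 3 nearest genes per member. Lamb3, Nsun2, Akr1d1, Srd5a2, Dio2 and Dio3 were named after their values were seen. Alternatives included DESeq2 1.42.0 and limma 3.58.1. Hsd17b8 and Sts were not analysed here. The results of 2 listed genes are not reported here, and the list counts leave them out.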

Additional observations from a re-analysis of the deposited data

Results flagged for a closer look

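In 3 cases a member's stage difference had opposite directions in the preparations. Each rests on 1 library per stage and preparation, and the difference between preparations was not tested. The log2 ratio of Akr1c6 at P7L over G0 was -0.17 in perfusion and 0.54 in liver tissue. That of Dio1 at G14.5 over G0 was 0.45 in perfusion and -0.25 in liver tissue. That of Hsd11b1 at G14.5 over G0 was 2.77 in perfusion and -1.32 in liver tissue, on 168 against 18 reads and 168 against 380 reads.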

How the results depend on the processing

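Hsd17b2 at P7L against G14.5 was called under all 17 alternatives (log2 fold change -1.54 to -1.16), and the zone difference of Akr1c6 under all 13 (1.60 to 2.66). For G14.5 against G0, Hsd17b2 was called in 14 of 17, not on the authors' values (0.57 with a pseudocount of 1, 0.57 with 0.1), and it gave 0.65 to 0.83 with 1 library left out. Left out in the same way, it gave -1.54 to -1.18 for P7L against G14.5. Akr1c6 by zone gave 1.99 to 2.28, with 1.89 to 2.49 at G0, 1.46 to 1.68 at G14.5 and 2.40 to 2.94 at P7L, and 1.18 at G14.5 with nuclei split at the middle. Over all 13 alternatives its estimate at P7L was 2.02 to 3.97.

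The numbers of genes called moved more. With 1 library left out they were 662 to 1885 for G14.5 against G0, 46 to 609 for P7L against G0, 450 to 2350 for P7L against G14.5 and 241 to 417 by zone, and for the zone differences 0 to 9 (G14.5, G0), 0 to 16 (P7L, G0) and 0 to 6 (P7L, G14.5). Within stages the zone test called 59 to 500 genes at G0, 27 to 302 at G14.5 and 4 to 120 at P7L with 1 library left out, and 1292, 667 and 274 in DESeq2. It called 214 at G0 on thinned nuclei, 252 at G14.5 with z-scores, and at P7L 85 on thinned nuclei, 115 with common cuts, 138 with z-scores and 30 with nuclei split at the middle. DESeq2 called 3429, 1901 and 2631 genes in the 3 stage comparisons, 87 between preparations, 1063 by zone and 434, 233 and 93 for the zone differences. For P7L against G0, thinned nuclei gave 695 called genes, filterByExpr as the only filter gave 92 and leaving out all filters gave 227. The authors' values gave 6 with a pseudocount of 1 and 337 with a pseudocount of 0.1. The zone differences gave 1 (G14.5, G0) and 0 (P7L, G14.5) with nuclei split at the middle, 0 in each with z-scores, 0 (P7L, G0) and 1 (P7L, G14.5) with common cuts, and 2 (P7L, G0) on thinned nuclei.

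Without the preparation term as a replicate block, 2095, 578 and 1597 genes were called in the stage comparisons, and Hsd17b2 gave 0.74, -0.63 and -1.36. This added the calls of Hsd17b2 for P7L against G0 and of Dio1 for P7L against G14.5, and changed no other member's call.

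Reversals fell on values that passed no test, and the cause was not tested. For G14.5 against G0, Hsd11b1 gave -0.60 without the block, -0.11 on thinned nuclei, -0.089 and -0.12 on the authors' values and -1.27 to 2.72 with 1 library left out. Dio1 gave -0.034 with library size alone, -0.14 and -0.17 on the authors' values and -0.27 to 0.48 with 1 left out. Akr1c6 at P7L against G0 gave -0.13 to 0.49 with 1 left out. Dio1 between preparations gave -0.019 with library size alone, -0.046 with no stage term, -0.16 on thinned nuclei, -0.029 in nuclei with over 1% hepatocyte marker reads, -0.0045 in limma-voom, -0.18 and -0.22 on the authors' values and -0.14 to 0.26 with 1 left out. Hsd17b2 by zone gave -0.0002 on thinned nuclei and -0.074 to 0.56 with 1 left out at G0, -0.17 to 0.042 at P7L, and -0.63 to 0.0092 for P7L against G0. The zone difference of Dio1 for P7L against G14.5 gave 0.41 on thinned nuclei and -0.43 to 0.15 with 1 left out. Library size alone shifted the median of all genes by -0.12, 0.08 and 0.20 in the stage comparisons (log2).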
